A study of Mus musculus with 18 samples.

Results

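Chemokines, interleukins and their receptors were examined on 18 mouse bead arrays. The members were all probes whose gene name in the array table starts with CCL, CXCL, CX3CL, CCR, CXCR or IL followed by a digit, and which were detected on at least 3 of the 18 arrays. A probe counts as detected when its signal lies above the negative control beads of its array at a detection p under 0.05. Of 213 probes with such a name 90 were kept, for 61 of 135 genes, out of 22987 kept probes and 16446 genes in the whole table. The 61 genes are 16 chemokine ligands, 4 chemokine receptors, 11 interleukins, 25 interleukin receptor chains, 3 secreted antagonists or binding proteins (IL1RN, IL18BP and IL22RA2) and 2 genes that only share the name: IL4I1, an amino acid oxidase, and IL1RL1L, whose current symbol is Tmed1. Of the 61 names, 4 differ from the current mouse symbol: CCL27 is Ccl27a, CXCR7 is Ackr3, IL28RA is Ifnlr1 and IL1RL1L is Tmed1.

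The arrays cover 6 groups of 3 replicates, all collected on day 3 in serum-free medium. Murine embryonic stem (ES) cells were grown on a monolayer of the stromal line PA6 (ES/PA6 co-cultures), and PA6 cells were grown alone (PA6 mono-cultures). Each culture type received no growth factor (-GFs), 20 ng/ml of FGF2 or 10 ng/ml of BMP4. The BMP4 dose is that of the labels; the study's methods give a lower one for cultures on slides. The ES cells are a knock-in line that carries EGFP under the τ promoter and had been kept on mouse embryonic fibroblasts, and each culture type stands for 1 cell line or 1 pair of lines. The study asked which signals lead ES cells toward endothelium, and the mono-cultures give the response of the stroma by itself.

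Chemokines are small secreted proteins that guide cells through receptors of the G protein-coupled family, and stromal cells of the bone marrow are known for CXCL12, which holds blood progenitors in place through CXCR4. Interleukins act through paired receptor chains: IL33 binds IL1RL1 together with IL1RAP, IL6 binds IL6RA together with IL6ST (gp130), and IL13RA1 joins IL4RA to form a receptor of IL4 and IL13. IL1RN is the natural antagonist of the IL1 receptor, and CXCR7 takes up CXCL12 without the usual signalling.

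Values are log2 signals after background correction and quantile normalization, and a gene with several probes is given by its brightest probe. A gene was called changed at a Benjamini-Hochberg adjusted p under 0.1 over all 16446 genes and an absolute log2 change over 1, as the study's methods set them, in a limma fit over all 18 arrays. Of the 61 member genes 29 were detected on all 18 arrays, 11 on 9 to 17 and 21 on 3 to 8. A gene detected only where it is high had to differ to be kept, so the counts below are read beside those of all genes, which passed the same filter. Just inside the limit, with 3 detected arrays, lay CCR7, CXCL10 and IL17RB; just outside, with 2, lay CCL20, IL12RB1, IL18R1, IL22RA1 and IL2RB. Of the 74 genes left out, IL1A, IL1B, IL10, CCR2 and CXCR3 were detected on 0 arrays. Of the 61 genes 19 were called in at least 1 of the 4 comparisons with -GFs medium (9.22% of all genes), 41 in at least 1 of all 9 comparisons (43.6% of all genes), and 20 in none.

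In each array, 56 to 73 of the 90 member probes were detected on co-culture arrays, and 62 to 73 on those of mono-culture. Arrays of 1 group correlated at 0.981 or more. The co-culture arrays of replicate 3 had the lowest signals of CCL2, CCL7, CCL9 and CXCL12 in all 3 media, so calls that change without them are named. The labels describe 1 well of each condition for each biological replicate, and a second fit, which blocks on that number separately for co- and mono-cultures, is quoted beside the calls it adds. Markers were checked too. Over 6 pluripotency genes the mean log2 signal was 11.31 to 12.42 in co-culture and 5.44 to 5.82 in mono-culture. Of 15 leukocyte markers PTPRC, EMR1, ITGAM, FCER1G and TYROBP were not detected on any array of the 6 groups, while 3 to 5 of the 15 were detected on all 3 arrays of each group. The mean over the 15 was 5.92 to 6.59.

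The promoters of 4 members that FGF2 raised in mono-culture are printed here, to show the sequence before the start of genes that moved together. Each line holds the 250 bases before a RefSeq transcription start (assembly GRCm38.p6), 5′ to 3′ on the strand of the gene. Capitals mark matches to an NF-kB motif (GGG, 2 bases of any kind, TTTCC), an AP-1 motif (TGANTCA) or a TATA box (TATAAA). NF-kB and AP-1 were searched on both strands, the TATA box on the strand of the gene, and the marked matches do not overlap. The CCL9 promoter lies at chr11:83578637-83578886 on the minus strand; those of IL6 (chr5:30012864-30013113), IL33 (chr19:29945540-29945789, the downstream one of 2 starts) and IL1RN (chr2:24336610-24336859, the upstream one of 3 starts) lie on the plus strand.
CCL9: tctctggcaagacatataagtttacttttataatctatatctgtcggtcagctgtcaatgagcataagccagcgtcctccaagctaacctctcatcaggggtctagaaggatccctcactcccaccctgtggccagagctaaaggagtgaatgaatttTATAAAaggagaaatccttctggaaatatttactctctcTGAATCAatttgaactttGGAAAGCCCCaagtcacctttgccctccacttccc
IL6: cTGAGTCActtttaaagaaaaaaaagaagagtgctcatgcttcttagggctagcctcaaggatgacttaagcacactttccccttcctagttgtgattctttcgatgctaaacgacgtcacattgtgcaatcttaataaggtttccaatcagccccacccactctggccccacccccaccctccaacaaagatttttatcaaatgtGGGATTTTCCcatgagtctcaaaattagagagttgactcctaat
IL33: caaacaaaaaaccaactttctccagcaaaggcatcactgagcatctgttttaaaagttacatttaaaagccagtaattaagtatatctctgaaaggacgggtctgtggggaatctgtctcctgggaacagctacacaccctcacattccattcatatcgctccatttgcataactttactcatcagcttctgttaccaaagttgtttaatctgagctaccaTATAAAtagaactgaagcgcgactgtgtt
IL1RN: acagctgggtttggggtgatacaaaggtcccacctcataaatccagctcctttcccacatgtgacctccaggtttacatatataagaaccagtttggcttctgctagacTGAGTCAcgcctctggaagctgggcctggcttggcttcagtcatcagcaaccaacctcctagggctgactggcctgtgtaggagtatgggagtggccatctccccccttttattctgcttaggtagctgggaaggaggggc

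The CCL9 window held all 3 motifs: the NF-kB match began 35 bases before the start, the AP-1 match 53 and the TATA match 92. In IL6 the NF-kB match began 44 bases and the AP-1 match 249 bases before the start. The IL33 window held a TATA match 29 bases before the start, and the IL1RN window an AP-1 match 141 bases before it. Of the starts not printed, that of IL33 had a TATA match 203 bases before it. The most downstream IL1RN start had an NF-kB match 51 bases before it, and the middle one none of the 3 motifs. Among all 32851 promoters of the table, 1.41% held the NF-kB motif, 6.75% the AP-1 motif and 7.59% the TATA motif. Promoters were in the table for 48 member genes (63 starts), of which 6 starts held NF-kB, 10 AP-1, 9 TATA and 4 a STAT motif (TTCNNNGAA, both strands, 7.02% of all promoters). Among other members that FGF2 raised in mono-culture, the promoters of IL13RA1, IL1RL1 (both starts) and CXCL14 held none of the 3 marked motifs, and the 4 printed ones were chosen after the matches were seen. A match is a description of letters and was not tested as a binding site.

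More members were called with FGF2 than with BMP4, as was the case over all genes, and IL33 changed most. In the PA6 mono-cultures FGF2 called 13 of the 61 genes, 9 higher and 4 lower, where 5.27% of all 16446 genes were called. In the ES/PA6 co-cultures it called 8, 7 higher and 1 lower, where 3.34% of all genes were called. BMP4 called 3 members in mono-culture (1.41% of all genes) and 3 in co-culture (0.76% of all genes). Seen as shares, 21.3% and 13.1% of the members were called with FGF2 in mono-culture and co-culture, and 4.92% with BMP4 in each. Over all genes, 2.71% were called higher and 2.56% lower with FGF2 in mono-culture, and 2.14% higher and 1.2% lower in co-culture. With BMP4, 0.839% were higher and 0.572% lower in mono-culture, and 0.31% higher and 0.45% lower in co-culture. The arrays of FGF2 and -GFs medium did not overlap for 34 members in mono-culture, where they did not for 33.8% of all genes, and for 17 in co-culture (19.3% of all genes). For BMP4 this held for 25 members in mono-culture (21.5% of all genes) and 9 in co-culture (13% of all genes). The median change over the 61 genes with FGF2 was 0.20 in mono-culture and -0.04 in co-culture, against -0.01 over all genes in both. The comparisons of FGF2 and of BMP4 with -GFs medium share their control arrays.

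**Figure D1:**
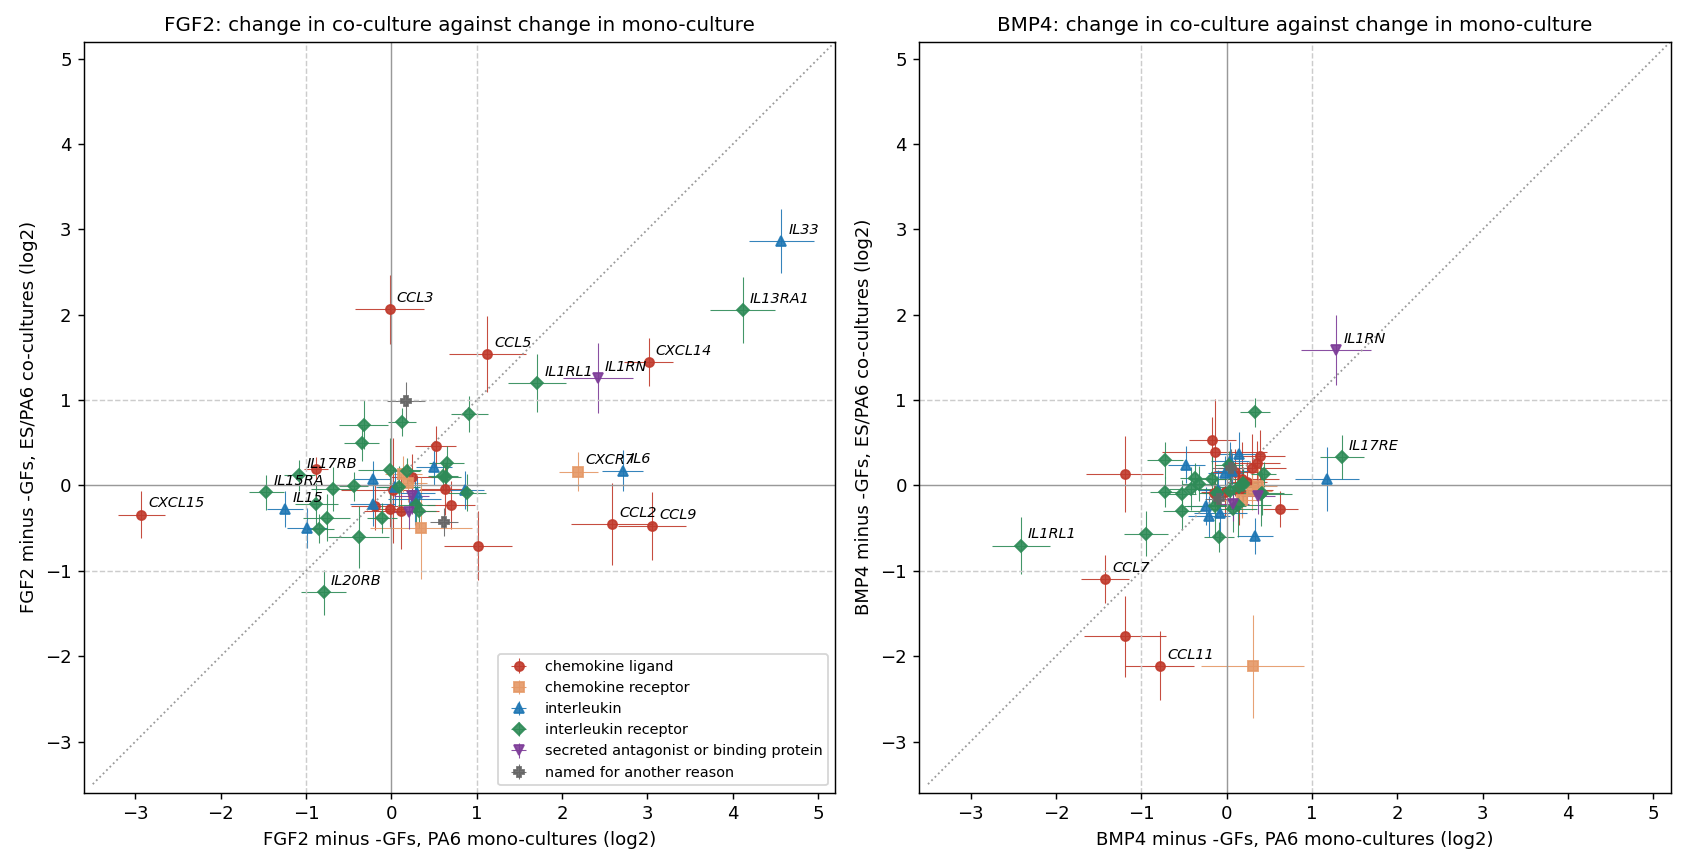
Change of each of the 61 member genes against -GFs medium (log2, with SE) in PA6 mono-cultures on the horizontal axis and in ES/PA6 co-cultures on the vertical axis, for FGF2 (left) and BMP4 (right); dashed lines mark the fold threshold, the dotted line equal change, and genes called in either culture type are named. IL33 and IL13RA1 rose in both culture types with FGF2, while CCL2, CCL9 and IL6 were called higher in mono-culture alone. All of these genes lay to the right of the dotted line.

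Among the chemokine ligands, CCL9, CXCL14 and CCL2 rose and CXCL15 fell with FGF2 in the mono-cultures. CCL9 is a rodent CC chemokine that binds CCR1. Its log2 signal in mono-culture was 12.70, 12.34 and 12.17 without growth factor, 15.82, 15.12 and 15.43 with FGF2 and 12.84, 12.66 and 12.60 with BMP4. The FGF2 arrays stood apart from the other 6, with a rise of 3.05 (SE 0.40, 8.28-fold, adjusted p = 6.04e-05). Its raw signal with FGF2 reached 61586, close to the 71361 of the brightest probe on that array. CCL2, which draws monocytes through CCR2, was at 10.59, 10.29 and 10.84 in -GFs medium, 13.17, 13.35 and 12.95 with FGF2 and 9.36, 9.37 and 9.42 with BMP4. It rose by 2.58 with FGF2 (SE 0.48, 5.99-fold, adjusted p = 0.0014). CCL2 with BMP4 lay below every control array, at a difference of -1.19 that was not called (adjusted p = 0.277) but passed when the replicates were blocked (adjusted p = 0.00556).

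CXCL14, a chemokine of epithelium and fibroblasts, was not detected in mono-culture without FGF2. Its log2 signals were 5.41, 5.28 and 4.98 in -GFs medium, 8.45, 8.07 and 8.18 with FGF2, and 5.71, 4.81 and 5.10 with BMP4, so that FGF2 gave at least 3.82-fold more signal than -GFs medium (adjusted p = 2.41e-06). Such a bound sets the bright group against the lowest detected value of each dim array. CXCL15, a rodent chemokine known from lung, went the other way: 7.63, 8.86 and 8.55 in -GFs medium, 5.30, 5.50 and 5.44 with FGF2, and 8.0, 8.91 and 8.40 with BMP4. It was detected on every -GFs and BMP4 array and on none of the FGF2 arrays, at least 4.24-fold lower than in -GFs medium (adjusted p = 2.62e-06). No co-culture array detected CXCL15.

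CCL7, a further ligand of CCR2, fell with BMP4 in both culture types. In mono-culture it was at 14.20, 14.59 and 14.64 in -GFs medium, 15.08, 15.29 and 15.15 with FGF2 and 13.13, 13.10 and 12.90 with BMP4, a fall by 1.43 with BMP4 (SE 0.28, 2.69-fold, adjusted p = 0.0111). In co-culture it was at 13.94, 14.21 and 12.92 in -GFs medium, 13.64, 13.73 and 13.01 with FGF2 and 12.74, 12.86 and 12.16 with BMP4, a fall by 1.10 (SE 0.28, adjusted p = 0.0834). All 3 BMP4 arrays lay below all 3 -GFs arrays in each culture type. The co-culture call was lost without any 1 of the -GFs arrays of replicates 1 and 2 or of the 3 BMP4 arrays. The second CCL7 probe changed by -1.45 and -1.08 in the same comparisons.

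CCL11 (eotaxin, a ligand of CCR3) fell with BMP4 in co-culture. Its signals there were 11.08, 10.97 and 9.90 in -GFs medium, 9.86, 10.76 and 9.22 with FGF2 and 8.40, 8.81 and 8.40 with BMP4, a fall by 2.11 (SE 0.40, 4.33-fold, adjusted p = 0.0215). In mono-culture they were 9.71, 10.16 and 11.15 in -GFs medium, 10.91, 11.74 and 11.41 with FGF2 and 9.43, 9.40 and 9.82 with BMP4. There the FGF2 and -GFs arrays overlapped, and the difference of 1.01 was called with the replicate block alone (adjusted p = 0.116 without it and 0.022 with it). CCL2 in co-culture was at 13.51, 13.04 and 11.36 in -GFs medium, 12.81, 12.69 and 11.08 with FGF2 and 11.27, 11.10 and 10.24 with BMP4. Its difference of -1.77 between BMP4 and -GFs medium was not called (adjusted p = 0.107), and was called with the block (adjusted p = 0.0011) and without the 3 co-culture arrays of replicate 3 (a difference of -2.09, adjusted p = 0.000494). The mean log2 signal of 10 stromal markers was 10.81 to 11.12 in these -GFs arrays, 10.47 to 10.64 with FGF2 and 10.45 to 10.74 with BMP4. In mono-culture it was 12.17 to 12.40, 11.46 to 12.18 and 11.71 to 11.98 in the same order. The part of the stromal markers in the falls was not tested. Without the -GFs array of replicate 2, none of the 3 members called with BMP4 in co-culture remained.

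CCL3 and CCL5, CC chemokines that draw leukocytes, rose with FGF2 in co-culture. CCL3 was at 6.69, 6.24 and 5.58 in -GFs medium, 8.76, 8.99 and 6.95 with FGF2 and 6.28, 6.48 and 5.58 with BMP4, a rise of 2.06 (SE 0.40, 4.18-fold, adjusted p = 0.00518), with 2 of the 3 -GFs arrays above detection. On the 9 mono-culture arrays it was not detected. The summed signal of the 15 leukocyte markers was 3685 to 6355 in -GFs medium, 9139 to 12203 with FGF2 and 4961 to 8010 with BMP4. Their mean log2 signal overlapped between the media, at 6.31 to 6.50, 6.19 to 6.58 and 6.29 to 6.59 in the same order. PTPRC, EMR1 and ITGAM stayed undetected, and the part of these markers in the result was not tested. CCL5 was at 7.31, 6.99 and 5.74 in -GFs medium, 9.01, 7.91 and 7.74 with FGF2 and 7.16, 7.32 and 5.96 with BMP4 in co-culture, a rise of 1.54 (SE 0.45, 2.91-fold, adjusted p = 0.0537). This call was lost without the -GFs array of replicate 3 and without the FGF2 array of replicate 1. In mono-culture CCL5 was at 8.90, 8.27 and 9.52 in -GFs medium, 10.34, 9.80 and 9.93 with FGF2 and 8.05, 7.32 and 7.75 with BMP4. The FGF2 arrays were above and the BMP4 arrays below all controls, with differences of 1.13 and -1.19 that were called with the block only (adjusted p = 0.00776 and 0.0188, against 0.118 and 0.236 without it).

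CXCL14 rose in co-culture as well, from 6.12, 5.57 and 5.05 in -GFs medium to 7.29, 6.73 and 7.06 with FGF2, by 1.44 (SE 0.28, adjusted p = 0.0051). It was detected on 1 of the 3 -GFs arrays, so no fold is given, and the call was lost without background correction, at a change of 0.77. CCL9 did not follow its rise in mono-culture: its co-culture signals were 12.40, 12.24 and 10.58 in -GFs medium, 11.39, 11.47 and 10.92 with FGF2 and 12.52, 12.14 and 11.18 with BMP4, and these groups overlapped. CXCL12, the bright stromal chemokine, was not called against -GFs medium in either culture type. In mono-culture it was at 15.20 to 15.39 without growth factor, 15.84 to 15.98 with FGF2 and 15.60 to 15.76 with BMP4. Over the 9 co-culture arrays it was at 13.42 to 14.97. Of its further bright probes in mono-culture, ILMN_2737302 was at 15.7 to 15.9 both in -GFs medium and with FGF2. ILMN_3158250 was at 15.43 to 15.64 and 15.69 to 15.90 there. Raw signals of these CXCL12 probes in mono-culture reached 67813, close to the top of the range, where the brightest probe of any array read 72879. The remaining ligands CX3CL1, CXCL16, CCL25, CCL27, CCL19, CXCL1 and CXCL10 were not called against -GFs medium.

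**Figure D2:**
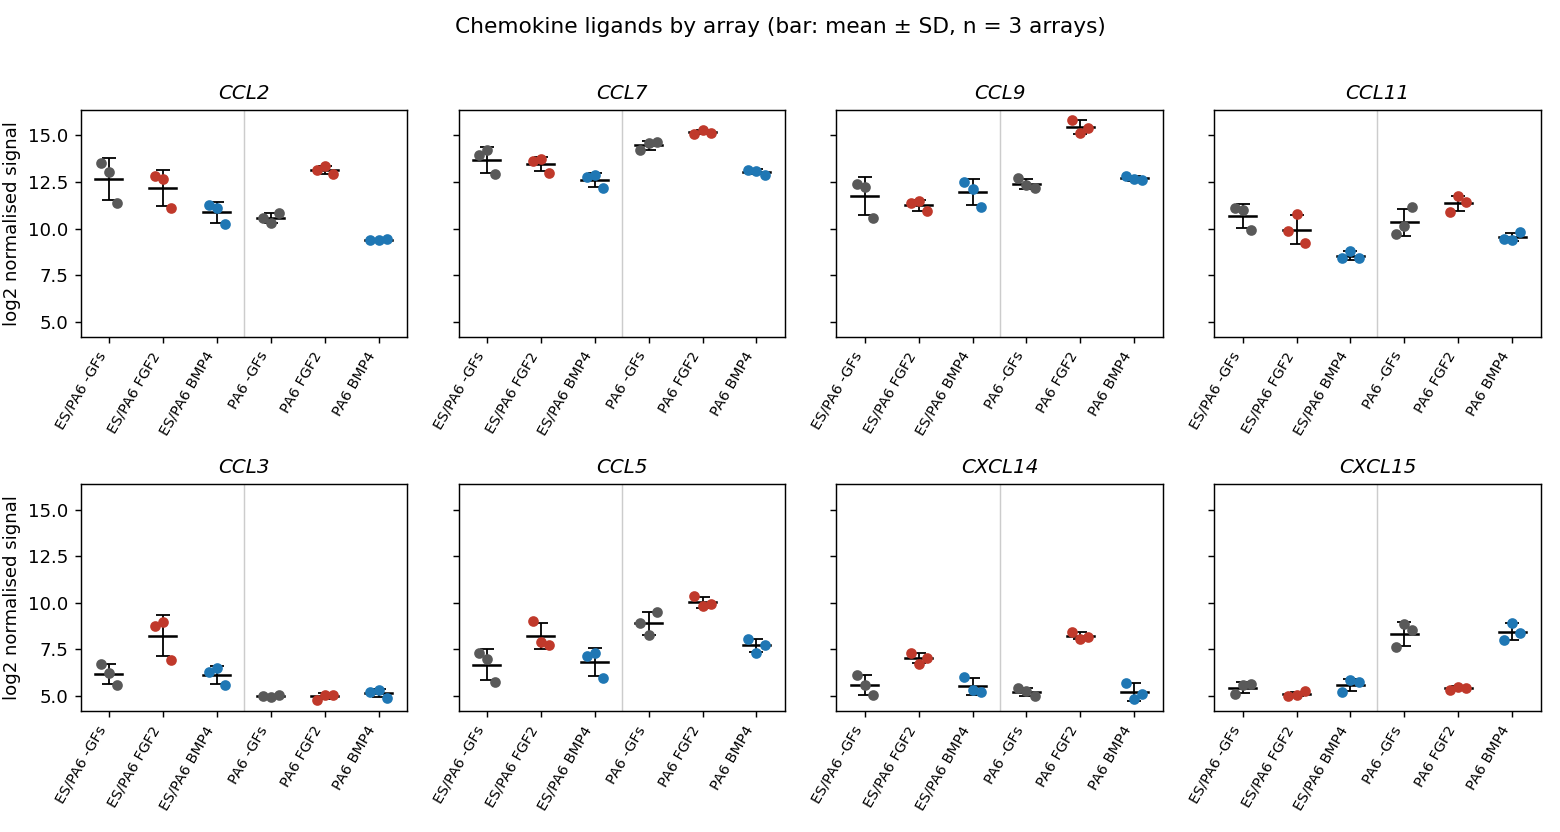
Log2 normalised signal of 8 chemokine ligands on every array, in 6 groups (grey without growth factor, red FGF2, blue BMP4; co-cultures to the left of the thin line), with the mean and SD of 3 arrays. CCL9 and CXCL14 stood highest in PA6 with FGF2, and CXCL15 was at its low level there. CCL2 in PA6 with FGF2 overlapped with the co-cultures without growth factor, and CCL3 stood highest in the co-cultures with FGF2.

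Of the 4 chemokine receptors CXCR7 was called against -GFs medium. Its mono-culture signals were 5.82, 5.98 and 5.82 in -GFs medium, 8.67, 7.63 and 7.89 with FGF2 and 6.62, 5.81 and 6.10 with BMP4. FGF2 gave at least 3.40-fold more signal than -GFs medium, where no array detected it (adjusted p = 6.23e-06), and the 9 co-culture arrays did not detect it either. CXCR4, the signalling receptor of CXCL12, was detected in co-cultures only, at 6.50, 7.45 and 8.76 in -GFs medium, 5.44, 7.08 and 8.69 with FGF2 and 5.17, 5.41 and 5.76 with BMP4. Its difference of -2.12 with BMP4 was not called (adjusted p = 0.127), and was called with the block (adjusted p = 0.00586, at least 3.05-fold lower) and without the co-culture arrays of replicate 3 (-1.68, adjusted p = 0.0895). CCR6 and CCR7 stayed between 5.36 and 6.68 on all arrays and were called in no comparison.

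IL33 rose with FGF2 in both culture types. It is a nuclear cytokine of the IL1 family that signals through IL1RL1. In mono-culture its log2 signal was 7.36, 7.07 and 7.86 in -GFs medium, 12.08, 12.20 and 11.72 with FGF2 and 8.50, 8.51 and 8.80 with BMP4. In co-culture it was 8.06, 8.20 and 9.0 in -GFs medium, 11.92, 11.50 and 10.43 with FGF2 and 7.69, 8.90 and 8.90 with BMP4. All FGF2 arrays lay above all others of their culture type. The rise was 4.57 in mono-culture (SE 0.38, 23.8-fold, adjusted p = 6.65e-07) and 2.87 in co-culture (SE 0.38, 7.29-fold, adjusted p = 0.000216). With BMP4 in mono-culture the difference of 1.17 was not called (adjusted p = 0.136).

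Its receptor IL1RL1 moved up with FGF2 and, in mono-culture, down with BMP4. The mono-culture signals were 8.52, 7.26 and 7.92 in -GFs medium, 9.18, 10.25 and 9.39 with FGF2 and 5.44, 5.40 and 5.62 with BMP4, where it was not detected. The rise was 1.71 with FGF2 (SE 0.34, 3.26-fold, adjusted p = 0.00239), and with BMP4 the signal was at least 3.26-fold lower than in -GFs medium (adjusted p = 0.000969). In co-culture the signals were 7.78, 6.78 and 7.47 in -GFs medium, 8.60, 8.95 and 8.09 with FGF2 and 6.93, 6.38 and 6.6 with BMP4, a rise of 1.20 with FGF2 (SE 0.34, adjusted p = 0.0445) that was lost without the -GFs array of replicate 2 or the FGF2 array of replicate 1 or 2. The co-receptor IL1RAP differed by 0.91 in mono-culture (adjusted p = 0.00875) and by 0.84 in co-culture (adjusted p = 0.0279) with FGF2, under the fold threshold. FGF2 set against BMP4 in mono-culture gave IL1RL1 at least 10.6-fold more signal (adjusted p = 6.16e-07).

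IL1RN, the antagonist of the IL1 receptor, was higher with either factor. In mono-culture its signals were 11.03, 11.82 and 10.61 in -GFs medium, 13.55, 13.68 and 13.48 with FGF2 and 12.40, 12.83 and 12.08 with BMP4. The rise with FGF2 was 2.42 (SE 0.41, 5.34-fold, adjusted p = 0.000691), and the difference with BMP4 of 1.28 was called with the block only (adjusted p = 0.00135, against 0.137). In co-culture its signals were 10.83, 10.28 and 9.26 in -GFs medium, 11.71, 11.59 and 10.85 with FGF2 and 12.22, 12.05 and 10.88 with BMP4. These are rises of 1.26 with FGF2 (SE 0.41, adjusted p = 0.0882) and 1.59 with BMP4 (SE 0.41, adjusted p = 0.0896). In co-culture both calls were lost without the -GFs array of replicate 2 or 3 or without the treated array of replicate 1 or 2. The other 2 kept probes of IL1RN changed by 1.62 and 2.47 with FGF2 in mono-culture, and by -0.09 and 0.76 in co-culture. IL18BP and IL22RA2 were called in no comparison.

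IL6 was detected with FGF2 in mono-culture on all 3 arrays, and on 1 array each of the co-cultures without growth factor and with FGF2. Its mono-culture signals were 5.39, 5.15 and 5.83 in -GFs medium, 7.94, 8.28 and 8.28 with FGF2 and 5.04, 5.45 and 5.26 with BMP4, at least 3.65-fold higher with FGF2 than in -GFs medium (adjusted p = 1.64e-06). IL6 passed the detection filter only through the FGF2 mono-cultures, so this p is not independent of the filter. Its shared signalling chain IL6ST stood at 11.41, 11.20 and 11.10 in -GFs medium, 11.96, 11.45 and 12.11 with FGF2 and 10.21, 10.52 and 10.78 with BMP4. Neither factor passed the fold threshold for IL6ST against -GFs medium, while the difference between FGF2 and BMP4 of 1.33 was called (SE 0.18, adjusted p = 6e-05). IL6RA, at its brightest probe, was not called against -GFs medium in either culture type. Its other kept probes were lower with FGF2 in mono-culture. ILMN_1216057 was at 8.12, 8.26 and 8.10 in -GFs medium and 7.43, 7.38 and 7.08 with FGF2. ILMN_2706430 was at 7.71, 8.42 and 8.31 in -GFs medium and 6.88, 7.40 and 7.10 with FGF2.

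IL13RA1, a receptor chain of IL4 and IL13, rose with FGF2 in both culture types. In mono-culture it was at 7.55, 7.16 and 6.55 in -GFs medium, 11.42, 11.29 and 10.88 with FGF2 and 7.18, 7.20 and 7.28 with BMP4, a rise of 4.11 (SE 0.38, 17.3-fold, adjusted p = 2.33e-06). In co-culture it was at 8.27, 7.48 and 6.29 in -GFs medium, 9.69, 9.49 and 9.05 with FGF2 and 7.62, 6.67 and 7.08 with BMP4, a rise of 2.06 (SE 0.38, 4.16-fold, adjusted p = 0.00367). The FGF2 arrays overlapped with no other array of their culture type. Its partner IL4RA differed by 0.65 with FGF2 in mono-culture (adjusted p = 0.0452), under the fold threshold. IL13 itself was detected on all 18 arrays at 6.00 to 7.33 and was called in no comparison.

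Lower with FGF2 in mono-culture were IL15, its presenting chain IL15RA, and IL17RB, all 3 dim. IL15 was at 7.44, 7.12 and 7.16 in -GFs medium, 6.13, 5.88 and 5.98 with FGF2 and 7.59, 7.18 and 7.15 with BMP4, and IL15RA at 7.39, 7.32 and 7.24, then 6.06, 5.90 and 5.60, then 7.17, 6.30 and 6.31. No FGF2 array detected either gene, and the signal was at least 1.97-fold lower for IL15 (adjusted p = 0.000623) and at least 2.08-fold lower for IL15RA (adjusted p = 0.000137). The second IL15 probe changed by 0.00. IL17RB, at 6.36, 6.28 and 6.17 in -GFs medium and 5.14, 5.13 and 5.31 with FGF2, was at least 1.01-fold lower (adjusted p = 0.000572). The 3 calls were lost without background correction (that of IL17RB with median scaling too), where changes of dim probes shrink to -0.65, -0.76 and -0.60.

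Of the other receptor chains, IL20RB fell with FGF2 in co-culture and IL17RE rose with BMP4 in mono-culture. IL20RB, a chain of the IL20 family receptors, was at 7.45, 7.54 and 6.82 in -GFs medium, 6.35, 5.92 and 5.80 with FGF2 and 6.85, 6.97 and 6.30 with BMP4, a fall by 1.25 (SE 0.26, 2.38-fold, adjusted p = 0.00802). The IL20RB call was lost without background correction, at a change of -0.66. IL17RE was at 6.43, 6.08 and 5.75 in mono-culture without growth factor, 5.67, 5.71 and 4.82 with FGF2 and 7.80, 7.57 and 6.94 with BMP4, a rise of 1.35 (SE 0.26, adjusted p = 0.00913). It was detected on 1 of the 3 -GFs arrays, so no fold is given, and the call was lost without background correction. IL17RE passed the detection filter only through the BMP4 mono-cultures, so its p is not independent of the filter. The second IL17RE probe rose by 2.08. IL17RD, also known as SEF and as an inhibitor of FGF signalling, differed by -0.88 with FGF2 in mono-culture (adjusted p = 0.0253) and by -0.22 in co-culture, under the fold threshold in both.

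**Figure D3:**
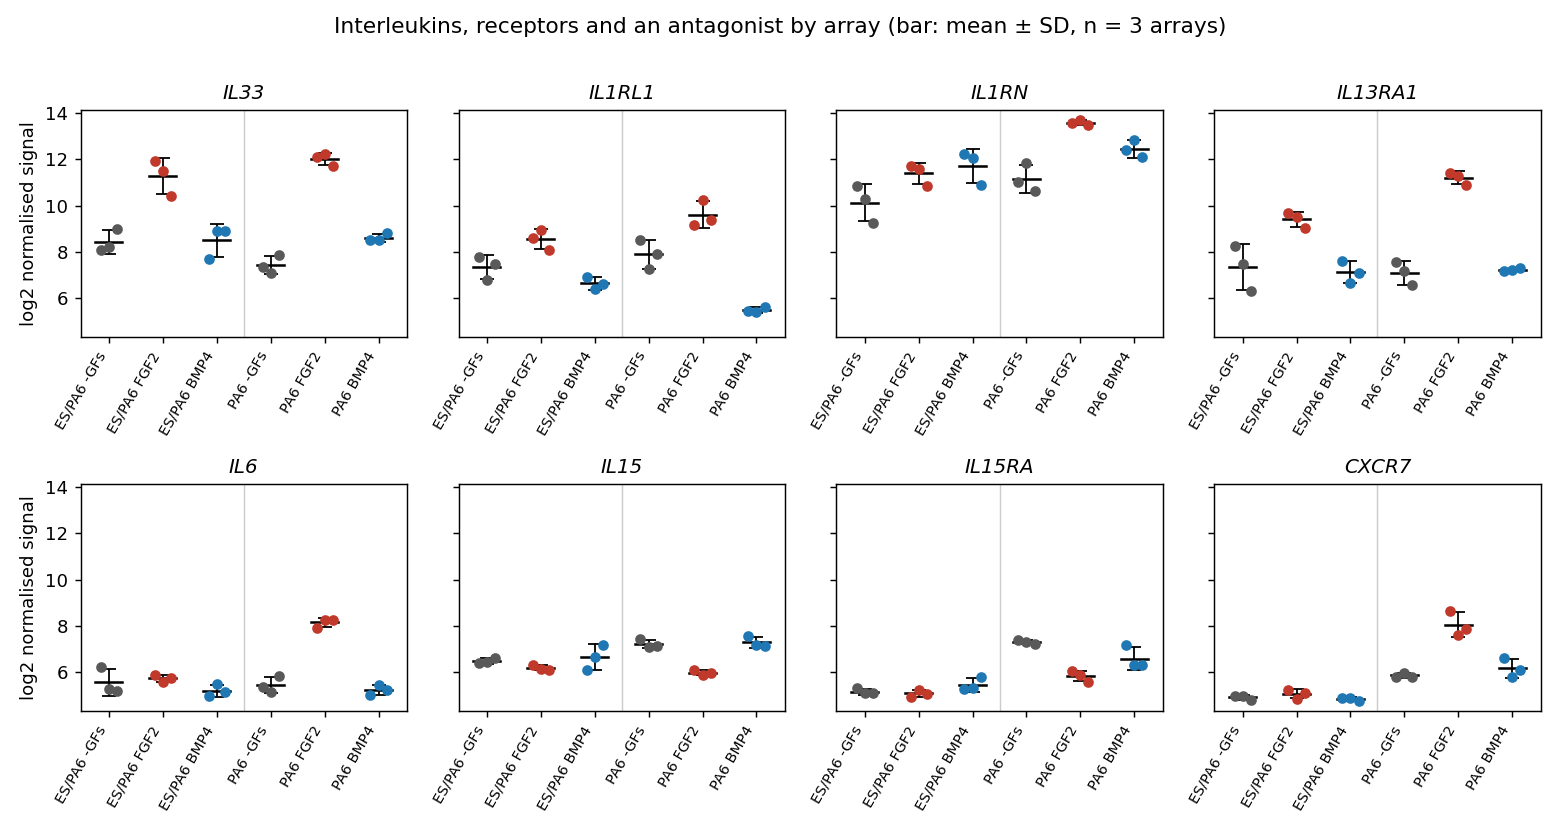
Log2 normalised signal of 8 interleukins, receptors and an antagonist on every array, drawn as for the ligands, with the mean and SD of 3 arrays. IL33 and IL13RA1 were highest with FGF2 in both culture types, IL6 and CXCR7 in PA6 with FGF2 alone, and IL1RL1 was at its lowest in PA6 with BMP4.

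Without the co-culture arrays of replicate 3, the calls with FGF2 in co-culture gained IL4I1 (1.11, adjusted p = 0.043).

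FGF2 was also set against BMP4 directly. In co-culture 7 members were called, where 2.85% of all genes were (1.82% higher and 1.03% lower with FGF2), and 17 did not overlap (18.8% of all genes). All 7 were higher with FGF2: IL33 (2.79), IL13RA1 (2.28), CCL3 (2.12), IL1RL1 (1.91), CXCL14 (1.52), CCL11 (1.41) and CCL5 (1.41). Leaving out the FGF2 array of replicate 1 or 2 or the BMP4 array of replicate 1 or 3 ended the calls of CCL11 and CCL5, and leaving out all co-culture arrays of replicate 3 that of CCL5 (1.22, adjusted p = 0.117). The replicate block added CCL2 (1.32, adjusted p = 0.00129) and CXCR4 (1.62, adjusted p = 0.0103), for 9 calls. CCL2 was also called without all co-culture arrays of replicate 3 (1.56, adjusted p = 0.00049). In mono-culture 19 members were called, 15 higher and 4 lower with FGF2, where 5.82% of all genes were (2.88% higher and 2.94% lower), and 30 did not overlap (33.1% of all genes). Among the 15, CCL2 differed by 3.77 (SE 0.48, 13.6-fold, adjusted p = 3.86e-05), CCL7 by 2.13, CCL5 by 2.32, CCL11 by 1.80, IL17RA by 1.41 and IL16 by 1.11. The 4 lower ones were CXCL15, IL17RE (at least 2.26-fold), IL15 and IL11RA1, the ligand-binding chain for IL11, with a difference of -1.04. The IL11RA1 call was lost without the FGF2 array of replicate 2, and that of IL1RN (1.14) without any 1 of the FGF2 arrays or the BMP4 array of replicate 1 or 3. The raw signal of IL11RA1 reached 60517 with BMP4, close to the top of the range.

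The difference between the FGF2 effect in co-culture and in mono-culture was tested as an interaction. It was called for 14 members, 5 higher and 9 lower, where 7.39% of all genes were (3.99% higher and 3.4% lower). For 9 the change was more negative in co-culture: CCL9 (-3.53), CCL2, IL6, IL13RA1, CXCR7, CCL11, IL33, CXCL14 and IL1RL1L. For CXCL15, CCL3, IL15RA, IL17RB and CCL27 it was more positive. CXCL15, IL15RA and IL17RB were not detected on any co-culture array or with FGF2 in mono-culture, so that no co-culture effect was measured for them. CXCR7 was not detected in co-culture either. CCL3 was not detected in mono-culture, so no mono-culture effect was measured for it. IL6 was detected on 1 array each of the co-cultures without growth factor and with FGF2. The replicate block added IL1RN (-1.16, adjusted p = 0.00767) and IL6RA (1.04, adjusted p = 0.00155). Without the co-culture arrays of replicate 3, IL33 and IL1RL1L (-0.95) were not called, and CCL7 (-1.09), IL16 (-1.06), IL1RN (-1.32), IL15 (1.08) and IL27RA (1.14) were. For the BMP4 effect 0 members were called by limma, with 9 at an unadjusted p under 0.05, where 0.559% of all genes were called (0.249% higher and 0.31% lower); with the replicate block CXCR4, IL17RE, IL15RA and CCL5 were. The brightness of a co-culture array comes from 2 kinds of cells, and fewer cells of a type and less RNA per cell cannot be told apart there.

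Without growth factor, 29 members differed between co-cultures and mono-cultures, where 39% of all genes did: 6 were higher and 23 lower in co-culture, against 19.4% and 19.5% of all genes. The arrays did not overlap for 37 members, where they did not for 70.4% of all genes. The median over the 61 genes was -0.64, against -0.11 over all genes. Over 10 stromal markers it was -1.49, with 6 called lower and 0 higher, and the part of the stromal share in these differences was not tested. Of 25 interleukin receptor chains 13 were lower and 1 was higher, and of 16 chemokine ligands 6 were lower and 3 higher. The lowest against mono-culture were CXCL15 (at least 5.50-fold), IL27RA (-2.90), IL6RA (-2.48), IL17RC (-2.43), CCL5 (-2.22), IL15RA (at least 2.70-fold), IL10RB (-2.12), IL11RA1 (-2.08) and IL3RA (-2.0). CXCL12 differed by -1.01 (SE 0.30, adjusted p = 0.00674), and by -1.87 and -1.98 on 2 further bright probes. Without the 3 co-culture arrays of replicate 3 it differed by -0.58, and 23 members were called. The calls of CXCL16 (-0.54), IL16 (-0.77), IL1RN (-0.60) and IL20RB (-0.998) were lost with those arrays left out too, as was that of CXCL1. These 4 were also lost without the -GFs co-culture array of replicate 3 alone, CXCL16 and IL16 without the mono-culture array of replicate 1, and IL1RN without that of replicate 2. The CXCL12 call was also lost without the co-culture or the mono-culture array of replicate 3 alone.

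The 6 members higher in co-culture were CXCR4, IL28RA, CCL2, IL4I1, CXCL1 and CCL3. CXCR4 was at least 2.41-fold higher (adjusted p = 0.00219), and it passed the detection filter only through these co-cultures. IL28RA, a chain of the interferon lambda receptor, stood at 7.37, 7.28 and 7.69 in co-culture and 5.12, 5.25 and 5.09 in mono-culture, at least 2.22-fold higher (adjusted p = 4.86e-09). Its probe ILMN_3009880 was at 6.06, 5.83 and 6.13 in co-culture and 4.99, 4.86 and 4.91 in mono-culture. On its probe ILMN_2632571 the arrays overlapped, at 5.28, 5.43 and 6.43 in co-culture and 5.86, 5.49 and 5.75 in mono-culture. CCL2 was higher by 2.07 (SE 0.48, 4.19-fold, adjusted p = 0.00114), all 3 co-culture arrays lying above all 3 of mono-culture. IL4I1 was higher by 1.67 (adjusted p = 6e-06). CXCL1, at 7.30, 5.34 and 6.84 in co-culture, overlapped with the mono-culture arrays at 5.08 to 5.42, and its call was lost without the co-culture array of replicate 1 or 3 and without any 1 of the 3 mono-culture arrays. CCL3 was not detected in mono-culture, and its co-culture mean lay below the bound, so no fold is given; its call was lost without the co-culture array of replicate 1.

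**Figure D4:**
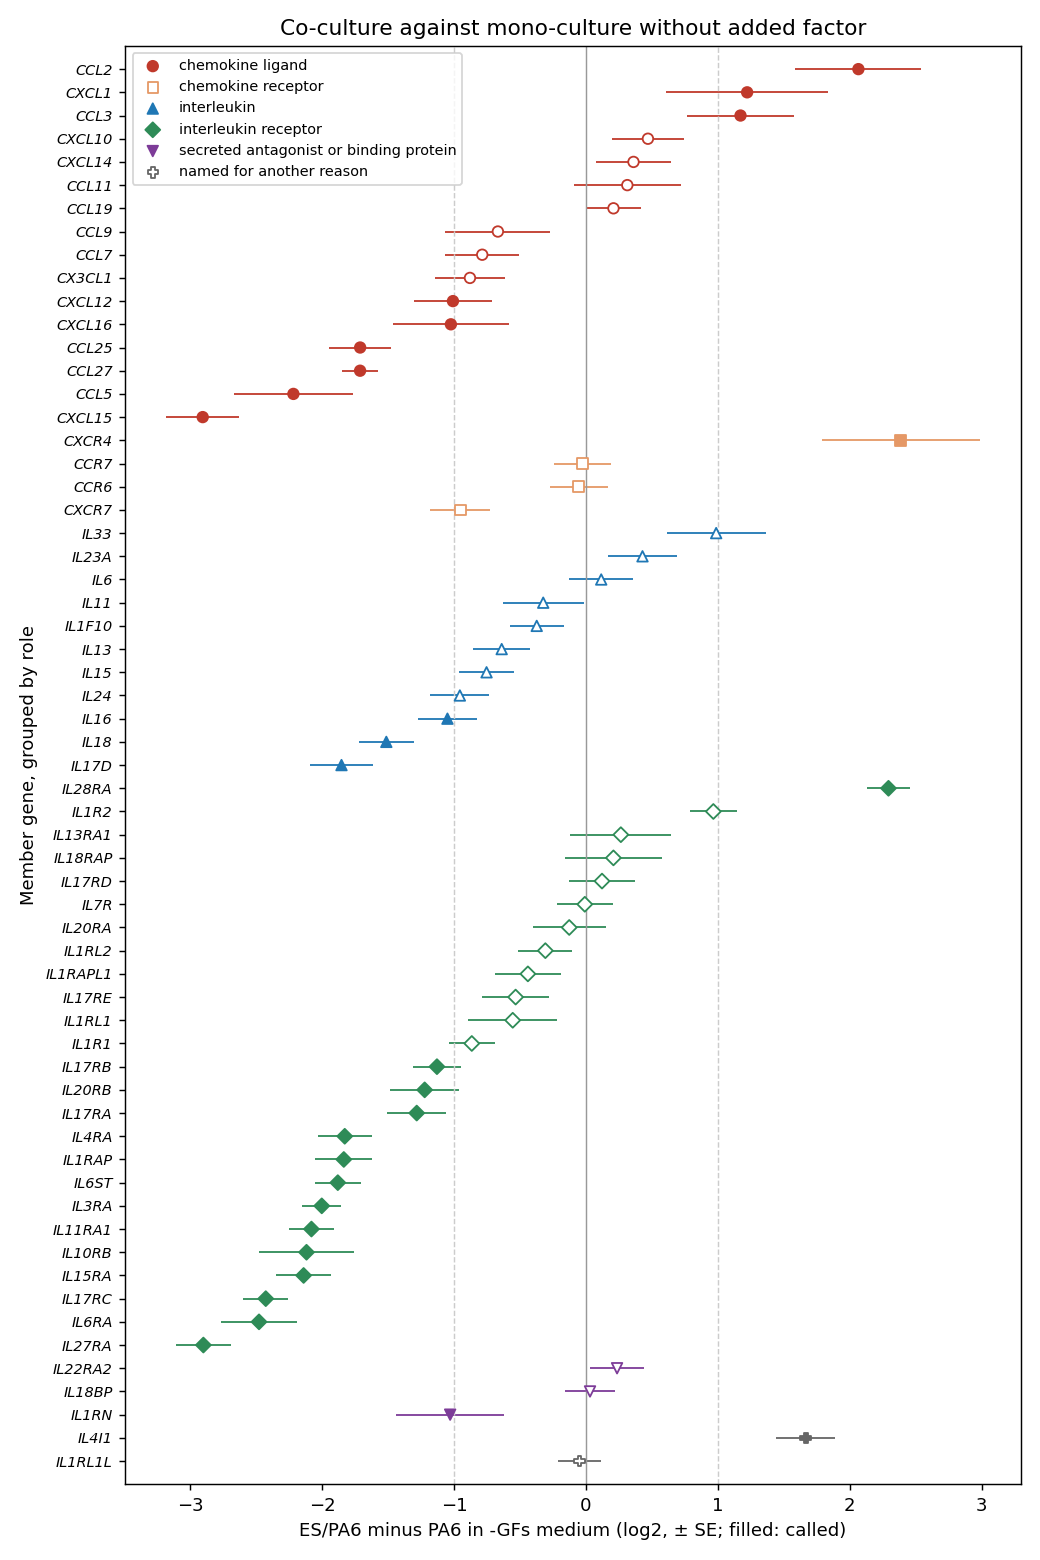
Difference between ES/PA6 co-culture and PA6 mono-culture in -GFs medium for each of the 61 member genes (log2, with SE), grouped by role, with filled symbols for called genes and dashed lines at the fold threshold. Filled symbols of the interleukin receptor chains lie to the left of 0 except IL28RA, and CCL2 and CXCR4 stand to the right.

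Genes of the same pathways outside the name rule were counted from lists chosen with earlier results of these data known. Of 17 tested cytokine genes 3 rose and 1 fell with FGF2 in mono-culture, and 0 were called with FGF2 in co-culture, where 5.27% and 3.34% of all genes were called. CSF3, the growth factor of neutrophils, was detected on all 3 FGF2 arrays and on no -GFs array, with means of 8.64 and 5.19 (adjusted p = 8.4e-05); CLCF1 had means of 6.85 and 5.77, and OSMR, the oncostatin M receptor, of 12.67 and 11.67. TSLP, a ligand of the IL7 receptor family, fell, with means of 5.72 and 7.42. Of 22 tested genes of the JAK, STAT and SOCS list, SOCS3, the feedback inhibitor of IL6ST signalling, was the gene called with FGF2 in mono-culture, by 2.85 (SE 0.15, adjusted p = 6.77e-09), and in co-culture it rose by 2.17 together with STAT5A (1.35) and JAK3 (1.09). Of 27 tested genes of IL1 and NF-kB signalling, BCL3 rose by 1.88 in mono-culture and 1.72 in co-culture, NFKBIE fell by 1.22 in mono-culture, and SIGIRR rose by 1.27 in co-culture.

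The 20 members called in no comparison were the ligands CCL19, CXCL10 and CX3CL1, the receptors CCR6 and CCR7, the interleukins IL11, IL13, IL1F10, IL23A and IL24, the receptor chains IL1R1, IL1R2, IL1RAPL1, IL1RL2, IL7R, IL17RD, IL18RAP and IL20RA, and the binding proteins IL18BP and IL22RA2. IL18, IL17D, CCL25, IL1RAP and IL4RA were called between the culture types only, by -1.51, -1.85, -1.71, -1.84 and -1.83. A p that misses the threshold does not show that the levels were equal. The replicates are cultures of the same lines, so that the p-values measure the spread between these samples.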

How the data were processed

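RNA of 18 cultures was hybridised to Illumina mouse bead arrays. The deposited table holds, per the file headers, an average signal intensity and a detection p-value for each probe and array, exported by the authors with GenomeStudio 2011.01 (the submitters' processing notes); the intensities carry no further normalization here. The study's methods name a cubic spline normalization; limma 3.58.1 in R 4.3.3 was used instead, with normexp background correction from the detection p-values (offset 16), quantile normalization and log2. Columns carry letter codes that were matched to the labels by culture, medium and replicate number. 5 stray lines were left out.

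Probes detected at p under 0.05 on at least 3 arrays were kept, and the probe with the largest mean stood for a gene. The 6 group means were fitted over 18 arrays with lmFit and eBayes, with 9 comparisons and Benjamini-Hochberg adjustment over 16446 genes. The script was tested on simulated data. A permutation of 3 arrays against 3 cannot go below p = 0.1. The number of arrays limits the precision.

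Members called against -GFs medium are named with their values on each array, those called elsewhere with their change, and the others once. The members and lists were chosen with earlier results of these data known. The replicate numbers pair cultures of 1 biological replicate per the labels; deviations of same-numbered arrays correlated at 0.325 to 0.521 in co-culture (9 pairs) and 0.0628 to 0.164 in mono-culture (9 pairs). Alternatives changed the background correction, normalization, probe filter, probe choice, arrays fitted, variance prior, thresholds, replicate block and each array left out in turn; leaving out the 3 co-culture arrays of replicate 3 was chosen after seeing the data. Gene names are those of the array design, matched to RefSeq symbols. Results for some genes are not reported here.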

Additional observations from a re-analysis of the deposited data

Results flagged for a closer look

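The change with FGF2 differed between co-culture and mono-culture for 14 members in the interaction test of the limma fit. Given as the change in co-culture minus that in mono-culture on the log2 scale, it was -3.53 for CCL9, -3.03 for CCL2, -2.54 for IL6, -2.06 for IL13RA1, -2.03 for CXCR7, -1.72 for CCL11, -1.70 for IL33, -1.57 for CXCL14 and -1.04 for IL1RL1L. It was 2.59 for CXCL15, 2.08 for CCL3, 1.38 for IL15RA, 1.20 for IL17RB and 1.08 for CCL27. CXCL15, CXCR7, IL15RA and IL17RB were not detected on any co-culture array, so no co-culture effect was measured for them, and these differences rest on the mono-culture values. CCL3 was not detected on any mono-culture array, so its difference rests on the co-culture values. IL6 was detected on 1 array each of the co-cultures without growth factor and with FGF2, and not in mono-culture without growth factor. For CCL2, CCL3, CCL9, CXCL14, CXCL15, CXCR7, IL13RA1 and IL6 the call held under every alternative run. Of 21 alternatives, CCL11 kept its call in 11, IL33 in 14, IL1RL1L in 14, and CCL27, IL15RA and IL17RB in 20. Single arrays ended the CCL11 call (co-culture -GFs 1 or 2 and FGF2 1 or 3, mono-culture -GFs 1 or 2 and FGF2 2 or 3), the IL1RL1L call (co-culture -GFs 3 and FGF2 1, mono-culture -GFs 1 and FGF2 2) and the CCL27 call (mono-culture FGF2 1). The IL33 call was lost at an adjusted p under 0.05, without the co-culture -GFs or FGF2 array of replicate 3, without the mono-culture -GFs array of replicate 1 or 2 or the FGF2 array of replicate 2, and without all 3 co-culture arrays of replicate 3, where in the last case the difference was -0.99 (adjusted p = 0.198).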

How the results depend on the processing

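Under the alternatives no named result turned its direction. The count of members called with FGF2 in co-culture was 8, and 4 without background correction (275 of all genes, against 550). With BMP4 in co-culture it was 3, and became 1 at an adjusted p under 0.05 (79 of all genes, against 125), 1 with no filter on dim probes, 1 with a trended and robust prior, 0 with only the co-culture arrays fitted (10 of all genes), and 5 without the co-culture arrays of replicate 3. Without a fold threshold it was 27 with FGF2 in mono-culture (3083 of all genes, against 867), 6 with BMP4 in mono-culture (632, against 232) and 14 for FGF2 against BMP4 in co-culture (1230, against 469). With only the mono-culture arrays fitted, BMP4 called 7 there. The cause of these moves was not tested.

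With the replicate block the pairing changed 3 counts by over 1.5 times: BMP4 in co-culture to 5 (215 of all genes), BMP4 in mono-culture to 6, and the BMP4 interaction from 0 to 4 (305 of all genes, against 92).

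Leaving out 1 array at a time gave 5 to 11 members with FGF2 and 0 to 3 with BMP4 in co-culture, 13 to 16 and 3 to 4 in mono-culture, 5 to 10 and 18 to 19 for FGF2 against BMP4, 23 to 33 between the culture types, and 11 to 19 and 0 to 1 for the interactions. Calls that held in every alternative were 3 of 8, 0 of 3, 10 of 13 and 2 of 3 for the comparisons with -GFs medium. Dim probes near the detection limit bound the folds of CXCL15, IL6, IL15RA and IL17RB.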
